A study of Mus musculus with 6 samples.

Results

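The KIT receptor signalling genes are 30 genes that encode the receptor of stem cell factor and the proteins that carry, shape or end its signal. They were taken by symbol from the deposited expression table, which lists 15553 genes, and all 30 were found there once each. The rule itself uses no measured value, though the list was drawn up with earlier results of these data known. RNA sequencing had been done on bone marrow cells of C57BL/6 mice aged 6 to 8 weeks, sorted as lineage-negative, Sca1+ and c-Kit+. The source field of every sample adds CD150+, whereas the protocol names CD48- cells of both the CD150+ and the CD150- gate, so which of them a library holds is not settled here. The 3 wild-type libraries came from mice carrying Mx1-Cre, and the 3 Yy1 knockout libraries from Yy1f/f;Mx1-Cre mice, in which both Yy1 alleles are flanked by loxP sites. Both genotypes thus carry Mx1-Cre, a recombinase under an interferon-inducible promoter that is not restricted to stem cells. The labels do not say whether each library came from its own mouse, so p-values measure the spread between libraries, which may be partly technical.

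KIT is a receptor tyrosine kinase of blood stem and progenitor cells. When stem cell factor joins receptors into pairs, they phosphorylate each other, and SRC family kinases and adaptors bind the phosphorylated tyrosines. The signal then runs through RAS and the MAP kinases, through PI 3-kinase and AKT, and through JAK2 and the STAT factors. Phosphatases, ubiquitin ligases and the adaptor LNK turn it down. In stem cells this pathway is known for keeping them alive and for setting how readily they divide. YY1, the product of the deleted gene, is a zinc-finger factor that binds DNA and acts with Polycomb proteins.

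The table gives RPKM, reads scaled by gene length and library size, so levels of different genes can be compared per length. Between 15102983 and 21757039 reads per library were estimated in the listed genes. The library sizes derived from the RPKM values were smaller, 12920190 to 19535460, so the estimated reads are not exact counts. The reason was not tested. Yy1 itself (chromosome 12: 108792973 to 108820148) was measured at 31.6, 42.3 and 52.1 RPKM in wild type replicates 1 to 3. In the libraries labelled Yy1 knockout replicates 1 to 3 it stood at 36.2, 16.6 and 28.5 RPKM. The genotypes overlapped at this gene, and limma, a linear model fitted to log2(RPKM + 0.5) over all genes, gave a log2 fold change of -0.66 with an adjusted p of 0.680. Leaving out 1 library gave -0.90 to -0.35, the smallest without knockout replicate 2. The library labelled Yy1 knockout replicate 1 lay inside the wild-type range, so its label is not borne out at this gene, and the value of the whole gene can include reads from parts that were not deleted. Below, knockout means the libraries so labelled. Wild type replicate 3 held the highest or lowest value of the 6 libraries in 50.5% of the 13179 tested genes, and in 18 of the 30 KIT pathway genes, more often than any other library.

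Kit was the most abundant gene of the set and Hras the least. In wild type Kit averaged 126 ± 14.1 RPKM (SD, n = 3, as for all later means), followed by Ptpn6, the gene of the phosphatase SHP-1, at 79.2 ± 19.4 RPKM. The gap between them was larger than either spread. Nras came next at 39.3 ± 7.29 RPKM. Below it, Pik3r1, Inpp5d, Grb2, Jak2, Akt1, Mapk3 and Stat5b lay between 31.9 and 35.8 RPKM, and the differences among these neighbours were within their spread. Hras stood last at 2.87 ± 0.344 RPKM, under Lyn at 7.32 ± 0.531 RPKM, and its values rest on 120 to 252 estimated reads per library. In the knockout libraries Kit averaged 78.8 ± 3.27 RPKM and Ptpn6 69.9 ± 14.4 RPKM, so the distance to the second gene was within the spread of Ptpn6. In knockout replicate 3 Ptpn6 was the higher of the pair, at 83.5 against 77.3 RPKM, while Kit was the higher in the other 5 libraries. Kit made up 18.2%, 15.2% and 15.1% of the summed RPKM of the 30 genes in wild type and 12.1%, 11.2% and 11.8% in knockout (exact permutation p = 0.1, two-sided, the smallest that 3 against 3 libraries allow).

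**Figure D1:**
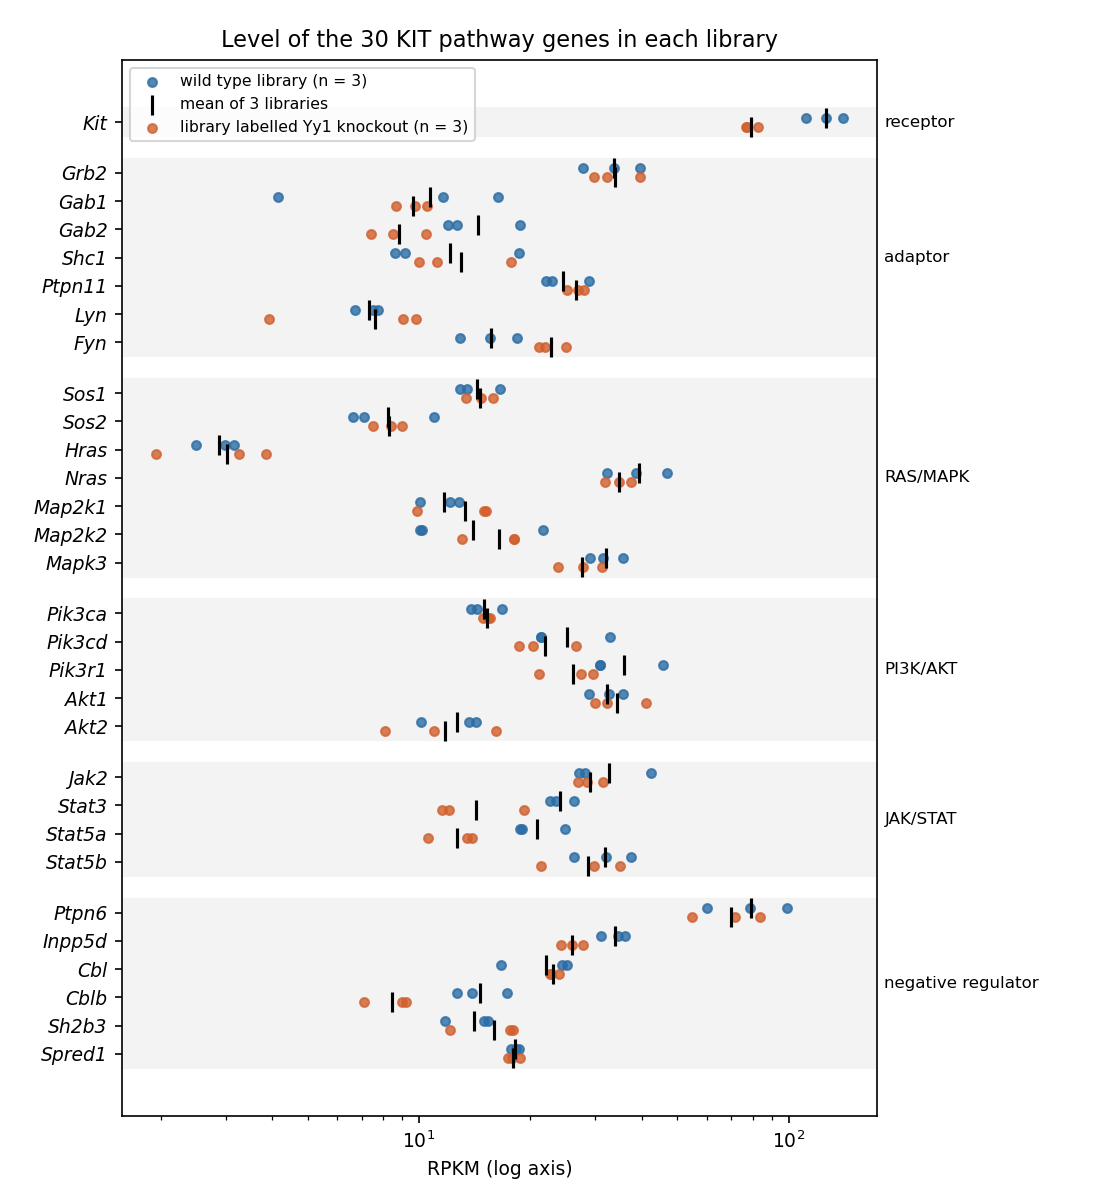
RPKM (log axis) of each KIT pathway gene in each library, grouped by role, with wild type in blue, knockout in orange and the mean of 3 libraries as a black bar. By its means Kit lies furthest to the right in both genotypes, its knockout libraries between 76.6 and 82.6 RPKM and its wild-type libraries between 112 and 140 RPKM. In knockout replicate 3 Ptpn6 lies further right than Kit, at 83.5 RPKM.

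No KIT pathway gene passed the test between genotypes when p-values were adjusted over the whole table. In limma, 0 of the 30 had a Benjamini-Hochberg adjusted p under 0.05, as had 0% of the 13179 genes tested, and all 30 had passed the filter on low values. limma-voom on estimated reads gave an adjusted p under 0.05 to 8 of 13114 genes (0.061%) and to 0 of the 30. At an unadjusted p under 0.05 there were 5 of 30 (16.7%), beside 7.79% of all tested genes. These were Kit, Stat3, Stat5a and Cblb, all with lower values in knockout (4 of 30, beside 3.06% of all tested genes), and Fyn with higher ones (1 of 30, beside 4.73%). In 8 of 30 genes (26.7%) the libraries of the 2 genotypes did not overlap, beside 14.5% of all tested genes; such genes are called separated here. Of the 8, 7 were lower in knockout (23.3% of the 30, beside 6.87% of all tested genes), and these were Kit, Gab2, Pik3r1, Stat3, Stat5a, Inpp5d and Cblb. The 1 higher gene was Fyn, where 7.63% of all tested genes lay clear in that direction. These shares do not compare genes of like level, as the median wild-type RPKM was 19.5 for the 30 and 8.95 over all tested genes. The median log2 fold change of the 30 was -0.03, beside 0.02 over all tested genes. Of the 30, 16 lay below 0 (53.3%, beside 48.1% of all tested genes). The summed RPKM of the 30 was 768, 736 and 832 in wild type, against 681, 684 and 656 in knockout, and without Kit it was 628, 625 and 706 against 598, 608 and 579. Both sums were lower in every knockout library (exact permutation p = 0.1, two-sided). Over all listed genes the summed RPKM was 416739, 399491 and 447567 in wild type. In knockout that total was 380353, 374402 and 406976, mostly lower too, with overlap. The sums given here and below were not scaled to these totals.

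**Figure D2:**
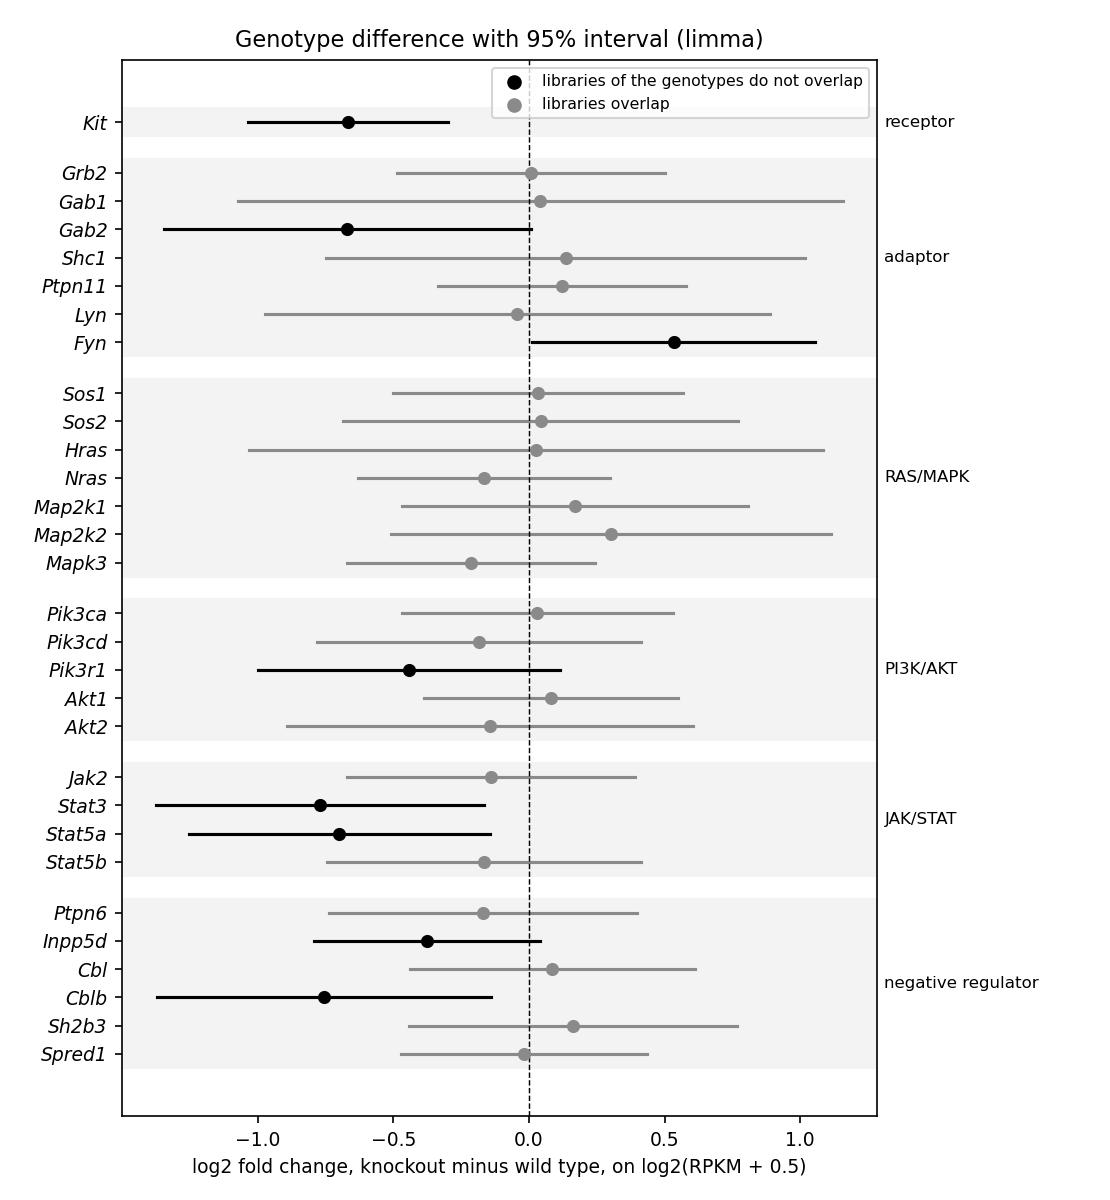
Log2 fold change of each KIT pathway gene, knockout minus wild type, on the log2(RPKM + 0.5) scale, with the 95% interval from limma as a line and genes grouped by role. Black marks the 8 genes whose libraries do not overlap between genotypes, 7 of them left of 0, and grey marks the other 22.

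Kit (ENSMUSG00000005672, chromosome 5: 75574916 to 75656722, plus strand) stood at 140, 112 and 126 RPKM in wild type, against 82.6, 76.6 and 77.3 RPKM in knockout. Every knockout library lay below every wild-type library, and the knockout values differed among themselves by less than the wild-type values did. The knockout mean was 0.626 times the wild-type mean. The log2 fold change of -0.67 had a 95% interval of -1.03 to -0.30 and an adjusted p of 0.429 in limma, so it did not pass over the whole table. In limma-voom with a replicate block, Kit passed (adjusted p = 0.00273), alone among the 30, where 0.549% of all tested genes did. That alternative was added after seeing the data, although same-numbered libraries were hardly correlated (0.015 to 0.059). By the authors' deposited table, an unadjusted p under 0.05 was reached by 7 of the 30 genes, beside 8.02% of the listed genes, and Kit was the 1 of the 30 genes with an adjusted p under 0.05 (0.0118, where 0.154% of the listed genes passed). Between 11944 and 16610 estimated reads stood behind each value, so counting error was small beside the spread of the libraries. Fewer cells with much Kit RNA and less Kit RNA per cell cannot be told apart in bulk RNA, and the sort on c-Kit protein selects on the product of this gene.

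Because the deleted gene encodes a DNA-binding factor, the promoters of the KIT pathway genes were searched for its core motif. RefSeq promoters (GRCm38.p6) reaching from 250 bases before to 50 bases after a start site were at hand for 27 of the 30 genes, 40 promoters in all. Lyn, Gab2 and Mapk3 had none. The motif GCCATNTT, on either strand, was in 1 of the 40 promoters and in 6.05% of all promoters. The shorter CCATNTT, which the first contains, was in 3 of the 40 and in 16.1% of all promoters. Neither was found in a promoter of the 7 separated genes that could be searched, Kit included. The Kit promoter is shown as that of the most abundant gene of the set, and those of Gab1 and Shc1 because they hold a match, in capitals, as CCATTTT in Shc1 and, in Gab1, as the reverse complement of GCCATCTT, which reads on the opposite strand. Each window is the 250 bases before the start site.
Kit, chr5:75574737-75574986, plus strand: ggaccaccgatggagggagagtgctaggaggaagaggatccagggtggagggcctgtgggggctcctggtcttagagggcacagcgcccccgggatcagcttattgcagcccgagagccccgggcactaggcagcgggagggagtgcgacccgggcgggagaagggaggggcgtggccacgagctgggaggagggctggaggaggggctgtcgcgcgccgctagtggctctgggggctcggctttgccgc
Gab1, chr8:80880520-80880769, minus strand: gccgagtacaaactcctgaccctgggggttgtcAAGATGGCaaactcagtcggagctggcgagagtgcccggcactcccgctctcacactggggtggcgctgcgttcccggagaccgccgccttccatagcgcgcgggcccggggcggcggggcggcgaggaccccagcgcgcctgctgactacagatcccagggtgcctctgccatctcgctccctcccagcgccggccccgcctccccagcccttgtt
Shc1, chr3:89418301-89418550, plus strand: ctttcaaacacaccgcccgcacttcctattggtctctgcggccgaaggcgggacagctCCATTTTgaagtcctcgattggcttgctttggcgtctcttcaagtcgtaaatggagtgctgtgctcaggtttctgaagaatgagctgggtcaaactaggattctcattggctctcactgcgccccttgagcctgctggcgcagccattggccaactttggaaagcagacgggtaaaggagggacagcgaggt
The matches lie 217 to 210 bases before the start in Gab1 and 192 to 186 bases before it in Shc1, and a second Shc1 promoter holds CCATCTT 210 to 204 bases before its start. Both genes overlapped between genotypes, with log2 fold changes of 0.04 for Gab1 and 0.14 for Shc1 (limma adjusted p 0.989 and 0.9501). The letters AGATAA or TGATAA, a form of the GATA factor motif, were in 5 of the 40 promoters and in 18.6% of all promoters, and 2 of the 5 belong to Inpp5d and Pik3r1. In Inpp5d, which was lower in every knockout library, the match in capitals lies 156 to 151 bases before the start.
Inpp5d, chr1:87620062-87620311, plus strand: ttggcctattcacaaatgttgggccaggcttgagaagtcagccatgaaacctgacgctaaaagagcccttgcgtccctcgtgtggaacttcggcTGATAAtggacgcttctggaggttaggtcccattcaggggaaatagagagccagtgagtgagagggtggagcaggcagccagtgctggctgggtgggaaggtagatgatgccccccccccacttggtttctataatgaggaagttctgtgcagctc
A match of letters describes these windows and is not a measured binding site. CANNTG within 20 bases of such a GATA match was in 2 of the 40 promoters, those of Pik3cd and Akt2, and in 4.78% of all promoters.

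Among the adaptors and receptor-proximal kinases, Gab2 and Fyn were separated between genotypes and in opposite directions. Gab2, a scaffold that recruits PI 3-kinase and SHP-2, stood at 12.6, 11.9 and 18.7 RPKM in wild type, against 8.51, 10.5 and 7.43 RPKM in knockout. The lowest wild-type and highest knockout values were close, and the log2 fold change was -0.67 (95% interval -1.35 to 0.0063, limma adjusted p = 0.641). Fyn, a SRC family kinase, stood at 15.5, 18.4 and 12.9 RPKM in wild type, against 21.9, 25.0 and 21.1 RPKM in knockout. All 3 knockout libraries were higher, by 0.53 on the log2 scale (95% interval 0.01 to 1.05, limma adjusted p = 0.631). Lyn, the other SRC family kinase of the set, averaged 7.32 ± 0.531 and 7.60 ± 3.19 RPKM, with knockout replicate 1 at 3.94 RPKM as the lowest of the 6 libraries.

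The remaining adaptors overlapped. Grb2, which couples the receptor to SOS, averaged 33.7 ± 5.86 RPKM in wild type, against 33.8 ± 5.06 RPKM in knockout, with a 95% interval of -0.49 to 0.50 for the log2 fold change. Ptpn11, the gene of the phosphatase SHP-2, which passes the signal on to RAS, averaged 24.6 ± 3.70 and 26.6 ± 1.40 RPKM. Gab1 and the adaptor gene Shc1 varied most within wild type relative to their means. Gab1 stood at 4.14, 11.6 and 16.4 RPKM there and at 9.72, 10.5 and 8.65 RPKM in knockout, so all knockout values lay inside the wild-type range. Shc1 stood at 18.6, 8.60 and 9.18 RPKM in wild type, against 17.7, 11.2 and 9.98 RPKM in knockout, with replicate 1 the highest in each genotype. The median log2 fold change of the 7 genes was 0.04, and it was -0.013 without wild type replicate 3. Their summed RPKM was 115, 120 and 121 in wild type, against 121, 124 and 122 in knockout, slightly higher in every knockout library (exact permutation p = 0.1, two-sided).

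None of the 7 RAS and MAP kinase genes was separated, and their log2 fold changes lay between -0.21 and 0.30 with a median of 0.03, which leaving out 1 library moved to between -0.032 and 0.052. It lay below 0 without wild type replicate 1, wild type replicate 3 or knockout replicate 2. The summed RPKM of the 7 was 124, 110 and 133 in wild type, against 116, 125 and 112 in knockout (exact permutation p = 0.7, two-sided). Sos1 and Sos2, whose products load RAS with GTP, averaged 14.3 ± 1.98 and 8.21 ± 2.38 RPKM in wild type, against 14.6 ± 1.24 and 8.30 ± 0.753 RPKM in knockout. Nras was the most abundant of the 7, at 39.3 ± 7.29 RPKM in wild type, against 34.6 ± 2.76 RPKM in knockout. Map2k2, the gene of the kinase MEK2, stood at 10.2, 10.04 and 21.6 RPKM in wild type, against 18.1, 18.1 and 13.0 RPKM in knockout. Its highest value was that of wild type replicate 3, without which the knockout values lay clear above and the log2 fold change went from 0.30 to 0.66 (limma adjusted p 0.863 with all libraries). Map2k1, which encodes MEK1, averaged 11.7 ± 1.43 and 13.3 ± 2.998 RPKM, and Mapk3, which encodes ERK1, 32.0 ± 3.44 and 27.6 ± 3.73 RPKM. For Hras the 95% interval of the log2 fold change was wide, from -1.03 to 1.08.

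Of the 5 PI 3-kinase and AKT genes, Pik3r1 alone was separated, by a narrow gap. Pik3r1, the gene of the regulatory subunit p85 alpha, stood at 45.6, 30.9 and 30.9 RPKM in wild type, against 29.6, 27.5 and 21.05 RPKM in knockout. The log2 fold change was -0.44 (95% interval -0.997 to 0.12, limma adjusted p = 0.720), and it was -0.26 without wild type replicate 1, the high library. The catalytic subunit genes were at 14.97 ± 1.54 and 15.3 ± 0.322 RPKM for Pik3ca and at 25.2 ± 6.67 and 21.9 ± 4.16 RPKM for Pik3cd, in wild type and knockout. Pik3ca lay between 13.8 and 16.7 RPKM in all 6 libraries. Akt1 averaged 32.3 ± 3.44 and 34.4 ± 5.87 RPKM and Akt2 12.7 ± 2.24 and 11.7 ± 4.09 RPKM, and both overlapped. The summed RPKM of the 5 genes was 127, 112 and 123 in wild type, against 128, 101 and 98.2 in knockout (exact permutation p = 0.4, two-sided).

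In the JAK and STAT layer all 4 genes had log2 fold changes below 0, with a median of -0.43, and Stat3 and Stat5a were separated. Stat3 stood at 23.4, 22.5 and 26.2 RPKM in wild type, against 11.5, 19.3 and 12.02 RPKM in knockout. Knockout replicate 2 lay nearest to wild type. The log2 fold change was -0.77 (95% interval -1.37 to -0.17, limma adjusted p = 0.567). Stat5a stood at 19.0, 18.8 and 24.8 RPKM in wild type, against 13.9, 13.5 and 10.6 RPKM in knockout, with a log2 fold change of -0.70 (95% interval -1.25 to -0.14, limma adjusted p = 0.568). Its close relative Stat5b stood at 26.2, 32.0 and 37.5 RPKM in wild type, against 35.0, 29.7 and 21.3 RPKM in knockout, so the genotypes overlapped (log2 fold change -0.16, 95% interval -0.74 to 0.41). STAT5A and STAT5B are much alike in sequence, and the labels and processing notes do not state how reads that match both genes were counted. Jak2, the kinase of this layer, stood at 28.1, 27.2 and 42.4 RPKM in wild type, replicate 3 being the high one, and at 31.4, 28.5 and 26.9 RPKM in knockout. Jak2 lay at 0.064 without wild type replicate 3 and Stat5b at 0.030 without knockout replicate 3, so the sign of both rests on 1 library. The summed RPKM of the 4 genes was 96.6, 100.5 and 131 in wild type, against 91.8, 91.0 and 70.8 in knockout (exact permutation p = 0.1, two-sided).

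The 3 STAT genes are neighbours on chromosome 11 (GRCm38). Stat5b (100780731 to 100850724, minus strand) is followed after 8626 bases by Stat5a (100859351 to 100885169, plus strand), and Stat3 (100885098 to 100939540, minus strand) faces Stat5a. The annotated spans of Stat5a and Stat3 overlap by 72 bases at their 3′ ends, all of them exonic in both genes, which is 1.009% of the exonic length of Stat5a and 0.756% of that of Stat3. Reads in this stretch cannot be told apart without strand. The listed genes within 80000 bases were then looked at, a choice made after the values of the STAT genes were seen. Ptrf, next to Stat3, averaged 24.7 ± 1.39 RPKM in wild type, against 18.9 ± 3.80 RPKM in knockout, and Kat2a, beyond Stat5b, 19.998 ± 0.535 and 14.4 ± 3.54 RPKM, both without overlap. Rab5c, also beyond Stat5b, averaged 56.9 ± 7.04 and 72.8 ± 10.6 RPKM, with overlap. Dhx58 averaged 7.805 ± 0.472 and 11.8 ± 1.34 RPKM and was separated in the higher direction, so separated neighbours lay on both sides of 0. None of these 4 passed in limma (adjusted p 0.664 to 0.722). Ghdc, on the far side of Stat5b from Stat5a, stood at 6.87, 1.20 and 5.88 RPKM in wild type, against 0.0213, 1.55 and 0.133 RPKM in knockout, with overlap (limma adjusted p = 0.597).

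**Figure D3:**
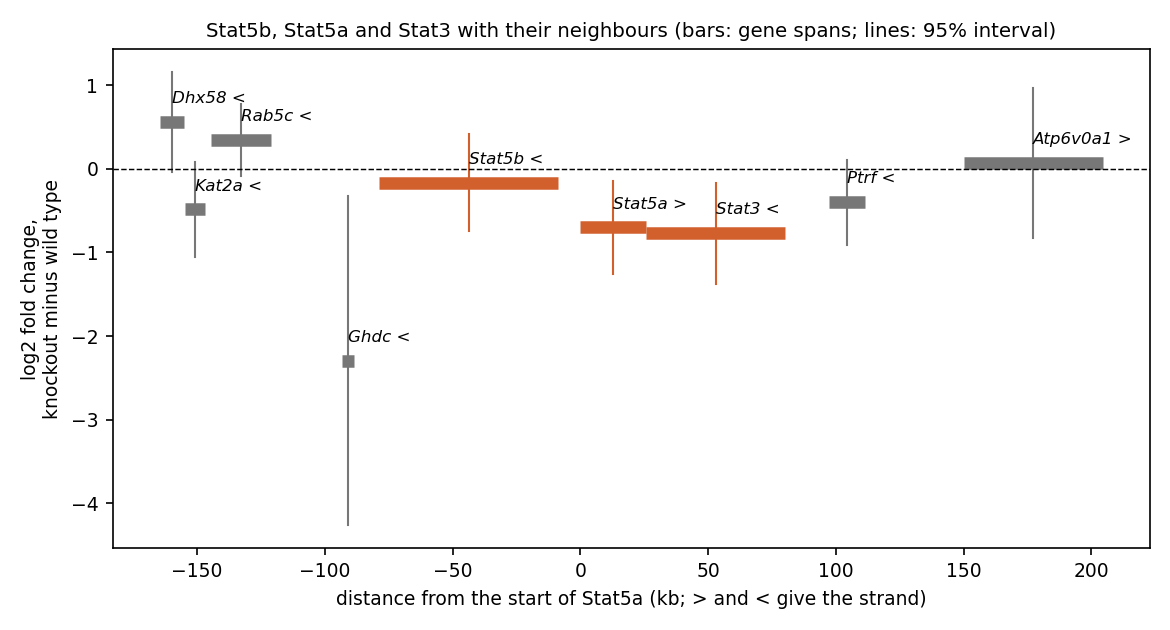
Log2 fold change (knockout minus wild type) of the genes around Stat5a against their distance in kb from its start, with bars for gene spans, thin lines for 95% intervals and the STAT genes in orange. Stat5a at -0.70 and Stat3 at -0.77 lie side by side below Stat5b at -0.16, and the other genes lie on both sides of 0.

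Cblb and Inpp5d were the separated genes among the 6 negative regulators. Cblb, which encodes a ubiquitin ligase that marks active receptors and their partners for removal, stood at 12.7, 17.3 and 13.9 RPKM in wild type, against 7.08, 9.01 and 9.19 RPKM in knockout. The log2 fold change was -0.76 (95% interval -1.37 to -0.14, limma adjusted p = 0.574). Its relative Cbl averaged 22.02 ± 4.66 RPKM in wild type, against 23.0 ± 0.722 RPKM in knockout and overlapped. Inpp5d encodes SHIP1, the phosphatase that removes a phosphate from the lipid made by PI 3-kinase, and stood at 34.5, 31.0 and 36.0 RPKM in wild type, against 25.9, 27.8 and 24.1 RPKM in knockout. All knockout values were lower, within a narrow range in each genotype, and the log2 fold change was -0.38 (95% interval -0.79 to 0.04, limma adjusted p = 0.668).

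The other 4 negative regulators overlapped. Spred1, an inhibitor of RAS signalling, had the narrowest range of the layer over the 6 libraries, at 18.2 ± 0.415 RPKM in wild type, against 17.99 ± 0.739 RPKM in knockout (95% interval of the log2 fold change -0.47 to 0.44). Ptpn6 ranged from 60.02 to 98.8 RPKM in wild type and from 54.9 to 83.5 RPKM in knockout. Sh2b3, the gene of LNK, averaged 14.0 ± 1.99 and 15.9 ± 3.30 RPKM. The summed RPKM of the 6 was 165, 182 and 198 in wild type, against 141, 166 and 176 in knockout (exact permutation p = 0.3, two-sided). The median log2 fold change of the layer was -0.09, and genes that carry the KIT signal and genes that restrain it were both among the 7 separated lower genes.

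**Figure D4:**
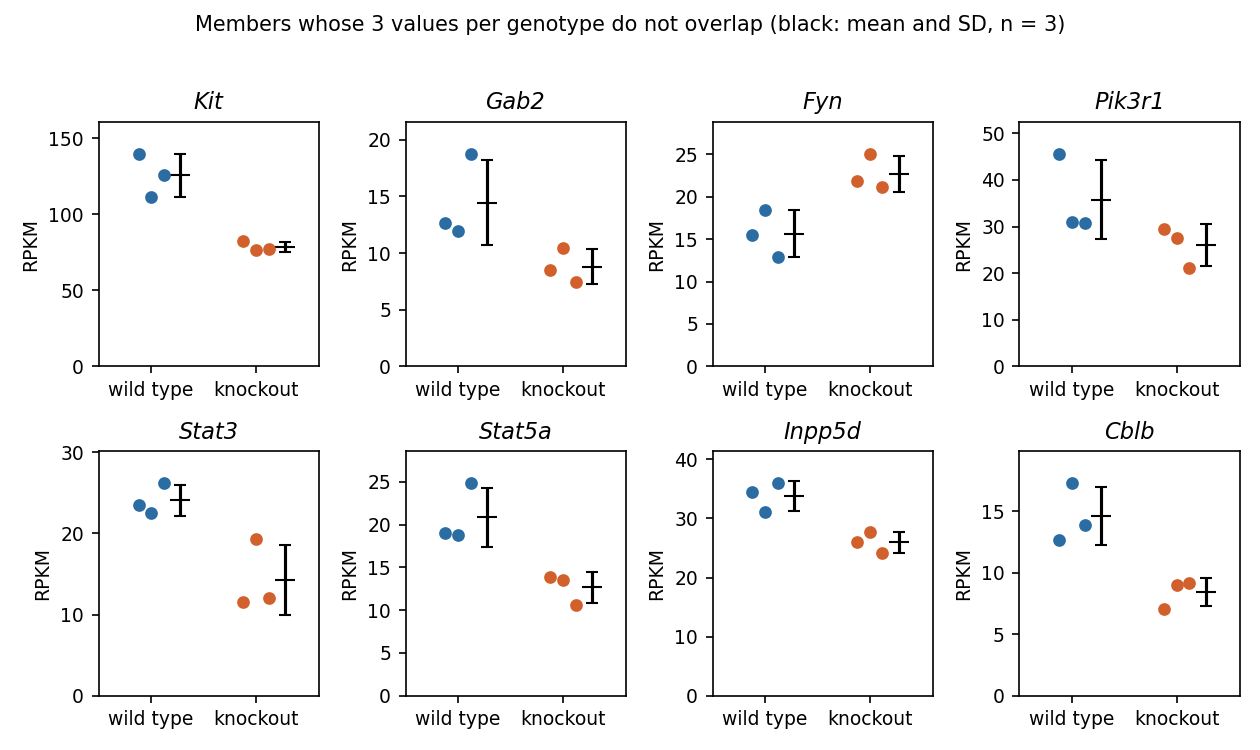
RPKM (linear axes from 0) of the 8 KIT pathway genes whose libraries do not overlap between genotypes, with wild type in blue, knockout in orange and the mean ± SD (n = 3) in black. Fyn is the only panel in which the knockout libraries are higher, and Pik3r1 has the narrowest gap, between 29.6 and 30.9 RPKM.

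Several roles in the pathway are shared by 2 related genes, and the plain RPKM ratio of the 2 within a library does not depend on the scaling of that library. The log2 ratios that were tested add 0.5 RPKM to each gene, so they depend on it to some extent, most at low levels. Of 10 such pairs, 3 had ratios that were separated between genotypes, where 14.5% of all tested genes taken singly were separated. The share over all possible pairs was not computed. Each of the 3 pairs holds a gene already separated on its own (Stat5a, Cblb or Gab2), so these ratios are not an independent result. With 3 libraries each the exact permutation test could not pass (p = 0.1 for each, 0.333 after Benjamini-Hochberg adjustment over the 10). RPKM of Stat5a relative to Stat5b was 0.725, 0.586 and 0.662 in wild type, against 0.397, 0.453 and 0.495 in knockout, lower in 3 of 3 libraries. Cbl relative to Cblb was 1.92, 1.45 and 1.20 in wild type, against 3.19, 2.52 and 2.60 in knockout. Gab1 relative to Gab2 was 0.327, 0.969 and 0.873 in wild type, against 1.14, 1.006 and 1.16 in knockout, a difference that rests in part on the low Gab1 value of wild type replicate 1, without which the log2 ratio differed by 0.25 instead of 0.71. The ratios of Sos1 to Sos2, Lyn to Fyn, Hras to Nras, Map2k1 to Map2k2, Pik3ca to Pik3cd, Akt1 to Akt2 and Ptpn11 to Ptpn6 overlapped. Nras exceeded Hras and Akt1 exceeded Akt2 in all 6 libraries, Akt1 by a factor of 2.02 to 3.69.

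**Figure D5:**
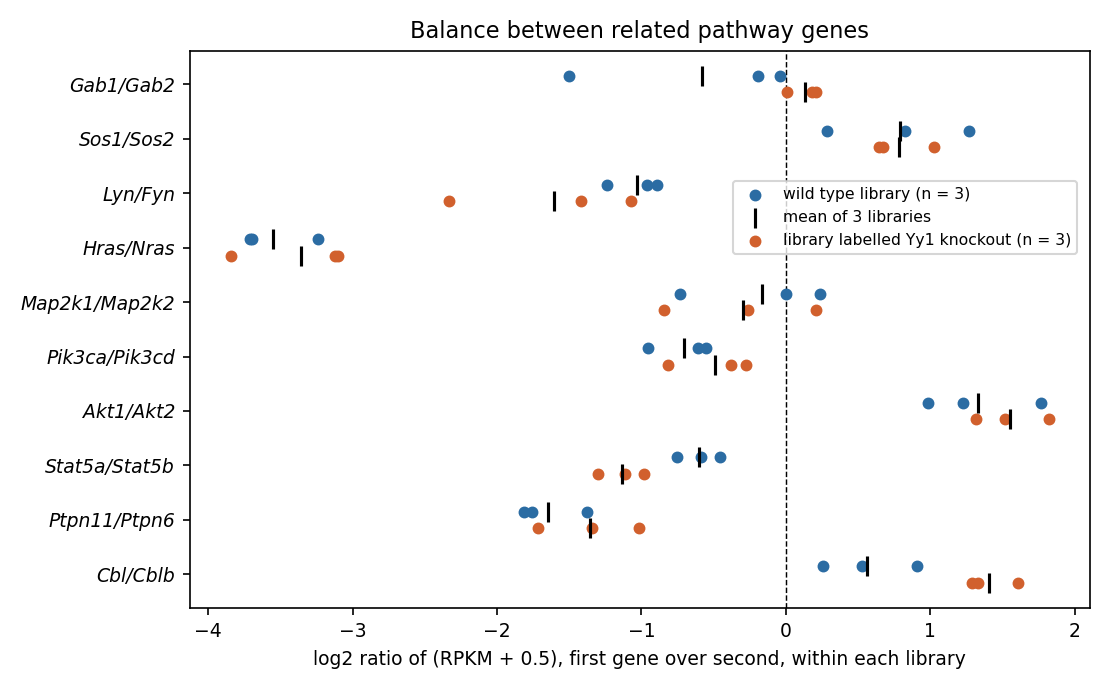
Log2 ratio of (RPKM + 0.5) of 10 pairs of related KIT pathway genes within each library, with wild type in blue, knockout in orange and means as black bars. Stat5a/Stat5b is lower and Cbl/Cblb and Gab1/Gab2 are higher in all 3 knockout libraries, and the other 7 pairs overlap.

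Further genes of the pathway were followed as a list of 63, of which 60 were found in the table and 56 passed the filter. None had an adjusted p under 0.05 in limma. By that filter the ligand was not tested, as Kitl, which encodes stem cell factor and is made by niche cells, was listed between 0 and 0.297 RPKM. At an unadjusted p under 0.05 there were 2 of 56 (3.57%, beside 7.79% of all tested genes), both higher in knockout. Dok2, an adaptor that restrains RAS, stood at 12.9, 5.80 and 6.11 RPKM in wild type, against 16.2, 14.0 and 15.4 RPKM in knockout (limma adjusted p = 0.606). Socs1, a JAK inhibitor, was listed at 0, 1.48 and 0 RPKM in wild type, against 5.37, 1.64 and 2.94 RPKM in knockout (limma adjusted p = 0.601). Socs1 passed the filter of 1 RPKM in 3 libraries only with its knockout values, so its difference is not independent of the filter. In 11 of the 56 (19.6%, beside 14.5%) the genotypes did not overlap. Of these, 8 were lower in knockout (14.3% of the 56, beside 6.87% of all tested genes) and 3 higher, where 7.63% of all tested genes lay clear in that direction. Among the lower ones, Plcg2, a phospholipase gene, averaged 57.1 ± 2.56 and 44.8 ± 4.59 RPKM, and Rasa3, a RAS GTPase-activating gene, 37.5 ± 7.74 and 26.5 ± 2.95 RPKM. The median log2 fold change of the 56 was -0.10, and 34 lay below 0 (60.7%, beside 48.1% of all tested genes).

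All 10 genes of a list of transcription factors and cofactors known to act at Kit or with its regulators had log2 fold changes below 0, between -0.78 and -0.04, where 48.1% of all tested genes lay below 0. Their median was -0.16, 0 had an unadjusted p under 0.05 in limma (beside 7.79% of all tested genes), and 1 of 10 was separated (10%, beside 14.5%). That gene was Tal1, which encodes a transcription factor of the basic helix-loop-helix family, at 47.5, 42.6 and 53.1 RPKM in wild type, against 34.9, 31.5 and 41.4 RPKM in knockout (log2 fold change -0.41, limma adjusted p = 0.664). Its relative Lyl1 averaged 36.4 ± 17.9 and 21.03 ± 9.47 RPKM, the ETS factor gene Erg 152 ± 10.5 and 125 ± 17.96 RPKM, and the cofactor gene Lmo2 535 ± 87.9 and 474 ± 70.2 RPKM, and these 3 overlapped. The 95% interval of each of the 10 included 0, so none of their signs is settled. That interval ran from -0.85 to 0.03 for Tal1 and from -0.50 to 0.42 for Fli1, whose value of -0.04 was nearest 0.

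Genes known to respond to ERK or STAT5 showed no common direction. Of 18 such genes, 15 were tested, 9 lay above 0 and 6 below, and 0 had an adjusted p under 0.05. Socs2, a STAT5 target and cytokine signalling inhibitor, stood at 3.11, 4.02 and 0.0922 RPKM in wild type, against 6.00, 8.79 and 7.99 RPKM in knockout. Phlda1, which responds to ERK, was listed at 0, 1.66 and 0 RPKM in wild type, against 2.66, 3.14 and 1.74 RPKM in knockout. Both were separated, with limma adjusted p of 0.628 and 0.633, and they were the 2 of 15 (13.3%) that were, beside 14.5% of all tested genes. Both passed the filter of 1 RPKM in 3 libraries only with their knockout values, so their separation is not independent of the filter. Ccnd1, the gene of cyclin D1, averaged 13.5 ± 6.39 and 19.7 ± 2.51 RPKM, and the stress response gene Ier3 26.1 ± 4.82 and 18.9 ± 4.67 RPKM, both with overlap.

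The summed levels of markers of the sort gate, of cell division and of megakaryocytes did not overlap between genotypes. Of the tested genes of these lists, 3 of 9, 6 of 8 and 3 of 5 were separated, beside 14.5% of all tested genes. The summed RPKM of 10 genes of the stem cell gate lay between 470 and 534 in wild type and between 320 and 354 in knockout, among them Hlf at 137 ± 9.40 and 89.7 ± 3.36 RPKM. The sum of 8 cell division genes lay between 112 and 161 in wild type and between 340 and 367 in knockout, with Mki67 the highest at 54.0 ± 22.4 and 153 ± 8.51 RPKM. For 6 listed megakaryocyte genes of 8 the sums were 27.1 to 47.5 and 59.3 to 107 RPKM, with Itga2b the highest in wild type, at 14.1 ± 4.47 RPKM there and 23.4 ± 5.59 RPKM in knockout. The part of these 3 lists in the values of Kit and the other separated genes was not tested. Mast cells, which also carry KIT, were represented by Cpa3 alone of 8 markers, at 0 to 7.09 RPKM in wild type, against 0.565 to 3.34 RPKM in knockout. The sums of the other lists overlapped between genotypes. They ranged from 37.7 to 50.8 RPKM in wild type, against 38.2 to 74.0 RPKM in knockout for erythroid cells (6 of 8 genes listed), and from 17.6 to 163 and 31.6 to 289 RPKM for granulocytes (7 of 8). For monocytes (2 of 6, without Csf1r) they ranged from 80.1 to 121 and 69.6 to 105 RPKM, and for B cells (1 of 5) from 13.3 to 28.6 and 9.15 to 21.4 RPKM. For T and NK cells (2 of 5, without Cd3e) they ranged from 4.76 to 17.95 and 3.99 to 9.11 RPKM, and for endothelial and stromal cells (4 of 6, without Cdh5) from 8.98 to 14.5 and 8.97 to 11.8 RPKM. The highest genes of these lists were Hbb-bt, S100a9, Lyz2, Cd79b, Nkg7 and Pecam1, at wild-type means of 30.9, 42.1, 98.3, 20.8, 9.55 and 11.7 RPKM.

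The values were followed without the libraries that stood apart. Without the library labelled Yy1 knockout replicate 1, Kit had a log2 fold change of -0.70, Stat5a of -0.77, Stat3 of -0.64 and Cblb of -0.64. Gab2 then stood at -0.65, Pik3r1 at -0.54, Inpp5d at -0.38 and Fyn at 0.56. Without wild type replicate 3, Kit stood at -0.66, Stat5a at -0.57, Stat3 at -0.71 and Cblb at -0.79. Gab2 then stood at -0.47, Pik3r1 at -0.53, Inpp5d at -0.33 and Fyn at 0.41. The direction of these 8 differences could not change here, as genes without overlap stay without overlap when a library is left out. Only their size is informative. With fewer libraries more genes lie clear by construction, and in each case 13 of the 30 did (43.3%), beside 22.1% of all tested genes without the knockout library and 26.8% without the wild-type one. None of the 30 passed over the whole table in limma in either case.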

How the data were processed

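RNA from 6 libraries of sorted bone marrow cells, 3 per genotype, had been amplified with the NuGEN Ovation RNA-Seq kit and sequenced on an Illumina HiSeq, per the labels' protocols. Subread, featureCounts, edgeR, limma and the mouse build mm10 are named in the submitters' processing notes; versions, read filters, strand and the handling of reads that map to several places are not stated there. The authors deposited RPKM per gene and library, and beside them their own comparison's log2 fold change, p-value and adjusted p; what test gave the last 3 is not stated. If reads that map to several places were left out, genes with close copies would read low, and amplification can add spread between libraries.

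Values were tested on log2(RPKM + 0.5) with limma 3.58.1 (R 4.3.3, variance trend), over the genes that reached 1 RPKM in 3 or more libraries, with Benjamini-Hochberg adjustment over all 13179 and a threshold of 0.05. Fold changes on this scale understate those of low genes. Sums and ratios were tested by exact permutation in scipy 1.17.1, and figures drawn with matplotlib 3.10.9. With the exonic lengths of GENCODE M21, 73.4% to 75.3% of a library's values came out as whole reads within 0.02 reads, so reads could be estimated but not recovered for all genes; limma-voom on these estimates was an alternative. Symbols and coordinates were those of GENCODE M21 (GRCm38), and promoters those of RefSeq GRCm38.p6. Other alternatives were the pseudocount, the filter, the variance model, the scaling, a replicate block and leaving out each library. The code was tested on simulated data.

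All 30 genes are accounted for. Kit and every member without overlap or with an unadjusted p under 0.05 are given per library; of each other list at most the 4 tested genes with the smallest p are named, plus the highest marker of each cell type; values of some marker genes are not reported here. The members and lists were chosen with earlier results of these data known.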

Additional observations from a re-analysis of the deposited data

How the results depend on the processing

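With 3 libraries per genotype, an exact permutation test cannot go below 0.1, and low genes such as Hras (120 to 252 estimated reads) have wide intervals. The 8 separated genes kept their direction in all 136 recomputations. For those that left out a library this was fixed in advance, as the genes were chosen for having no overlap. Pik3r1 overlapped under quantile normalization, which left 7 genes separated. limma gave 0 genes an adjusted p under 0.05 (1027 an unadjusted p under 0.05), limma-voom on estimated reads 8, and leaving out each library in turn 0 to 1. Leaving out each library in turn gave 8 to 13 separated genes, with 13 without wild type replicate 3 or Yy1 knockout replicate 1. The cause was not tested.

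Same-numbered libraries hardly deviated together (correlations of 0.015, 0.059 and 0.047), and the other combinations gave -0.076 to 0.035. For each knockout library the same-numbered wild-type library gave the highest value. With so few libraries this check cannot decide whether the numbers pair them. The replicate block gave 0 genes in limma. In limma-voom with the block, an alternative added after seeing the data, 72 genes passed, 1 of them of the 30, Kit (-0.67, adjusted p 0.00273), and of the marker genes named Hlf (-0.61).

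Log2 fold changes near 0 turned sign. Grb2 was -0.0094 under quantile normalization and -0.014 at equal library medians, Hras -0.018 under quantile normalization and -0.016 in limma-voom. Gab1 was -0.18 and Lyn 0.089 in limma-voom with the block. Leaving out each library in turn gave -0.12 to 0.13 for Grb2, -0.50 to 0.43 for Gab1, -0.10 to 0.48 for Shc1, -0.26 to 0.34 for Lyn, -0.035 to 0.14 for Sos1 and -0.086 to 0.26 for Sos2. It gave -0.15 to 0.27 for Hras, -0.021 to 0.11 for Pik3ca, -0.33 to 0.019 for Pik3cd, -0.052 to 0.17 for Akt1, -0.39 to 0.085 for Akt2 and -0.25 to 0.064 for Jak2. It gave -0.32 to 0.030 for Stat5b, -0.35 to 0.0034 for Ptpn6, -0.10 to 0.19 for Cbl, -0.049 to 0.0077 for Spred1 and -0.080 to 0.28 for the neighbour Atp6v0a1. The log2 ratio of Sos1 to Sos2 gave -0.26 to 0.23 and that of Map2k1 to Map2k2 -0.42 to 0.14.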
